A study of Mus musculus with 2 samples.

Results

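Processed pseudogenes are copies of spliced messenger RNAs that were reverse transcribed and inserted elsewhere in the genome. They carry no introns of the parent gene, usually lack its promoter, and are most often copied from messenger RNAs that are abundant in the germ line, such as those of ribosomal proteins and metabolic enzymes. A recent copy is nearly identical to its parent, so a read from the parent messenger RNA can also fit the copy, and a quantification has to divide such reads between them. Of 9940 genes in the GENCODE M21 mouse annotation whose transcripts are all of the type processed pseudogene, 198 (1.99%) held a mean of 100 or more expected reads in the left cerebral cortex of young mice. These 198 genes are the members described here; the reads that chose them are given as a description. The limit fell in a continuous range: Gm13394, AC123659.1 and Gm4366 were just inside it with means of 100.01, 100.15 and 101.08 reads, and Gm6457, Gm16439 and AA414768 were just outside it with 98.7, 98.6 and 97.5 reads. A further 2445 processed pseudogenes had fewer reads, and 7297 (73.4%) had 0 in both libraries.

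Total RNA, 300 ng per library with ERCC spike-in RNAs, came from left cortices of 2 female mice of the strain B6CASTF1/J at the age of 10 days. These F1 hybrids carry 1 set of chromosomes of C57BL/6J and 1 of CAST/EiJ, while the reads were assigned to the mm10 reference, which is of C57BL/6J. The animals form 1 group (n = 2) with no contrast of treatment or genotype, and an exact two-sided test over 2 animals cannot give a p under 0.5, so no test was made; the SD of 2 values and both animals' values are given instead. The comparisons are between the 2 quantifications deposited for the same reads, between each pseudogene and its parent gene, and between the animals. The first quantification, called alignment-based here, divides reads aligned to the transcriptome into expected reads per gene; the second, called alignment-free, estimates reads per transcript straight from the sequences. TPM is a level per transcript length, scaled to the same total in each library. Genes held 29867112 alignment-based reads in replicate 1 and 31031340 in replicate 2. All 12 marker genes of cortical neurons, glia and the female sex that were looked up were detected, at 29.1 to 672 TPM.

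A few member sequences are shown first, from a copy identical to its parent to copies that differ. Gm12338, at chr11:75599763-75599954 (minus strand, mm10), within an intron of Pitpna on the opposite strand, is 192 bases long and equals the coding sequence with stop codon of Cox7c, a small subunit of cytochrome c oxidase. No base differs, so none is in capitals, and no 100-base read can tell both genes apart within it.
Gm12338: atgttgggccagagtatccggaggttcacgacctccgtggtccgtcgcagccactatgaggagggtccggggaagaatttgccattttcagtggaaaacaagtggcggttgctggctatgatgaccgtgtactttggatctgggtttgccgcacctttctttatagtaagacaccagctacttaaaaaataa

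Gm6548 shows how a member that does differ looks. The 90 bases of coding sequence with most differences are given above the same bases of the parent, with the differing bases in capitals. Gm6548 is a copy of Eef1a1, the elongation factor that brings aminoacyl-tRNA to the ribosome, at chr17:78850909-78850998 (minus strand), with 8 differences in this window.
Gm6548: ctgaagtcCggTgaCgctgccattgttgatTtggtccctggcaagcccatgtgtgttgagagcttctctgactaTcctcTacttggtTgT
Eef1a1: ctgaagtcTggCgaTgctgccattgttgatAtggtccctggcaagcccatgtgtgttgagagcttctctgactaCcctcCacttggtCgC

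Rps15-ps2, a copy of the small-subunit ribosomal protein gene Rps15 at chr6:58017650-58017739 (plus strand), has 6 differences in its window. Rpl19-ps11, a copy of the large-subunit gene Rpl19 at chr8:19493038-19493127 (plus strand), has 1 difference in its whole coding sequence. These copies were treated differently by the quantifications, as described further on.
Rps15-ps2: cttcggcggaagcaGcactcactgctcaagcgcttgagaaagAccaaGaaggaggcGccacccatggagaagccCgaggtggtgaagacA
Rps15: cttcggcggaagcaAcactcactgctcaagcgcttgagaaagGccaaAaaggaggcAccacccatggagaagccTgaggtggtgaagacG
Rpl19-ps11: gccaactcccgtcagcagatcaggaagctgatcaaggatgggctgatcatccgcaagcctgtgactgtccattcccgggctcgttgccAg
Rpl19: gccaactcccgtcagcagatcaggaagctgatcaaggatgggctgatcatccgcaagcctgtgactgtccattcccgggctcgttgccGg

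Members resembled protein-coding messenger RNAs far more closely than other processed pseudogenes did. Aligned to all protein-coding transcripts of the annotation, the 198 members had a median identity of 99.4% to their best match, against 90.3% for the 8411 of the other 9742 processed pseudogenes that had a match. At least 99% identity was found for 132 members (66.7%) and for 430 of the others (5.11%). Read the other way, 562 processed pseudogenes had at least 99% identity and 23.5% of them were members, while of 6238 with an identity under 95% only 7 were. The reads that define the members are shared with their matches, so identity and membership are not independent measures. The members with the lowest identity were Pabpc1l2b-ps (76.3%), AC098880.2 (82.4%), AC154707.1 (86.4%), AC134576.3 (93.0%) and Gm10167 (93.6%). The best match of Pabpc1l2b-ps, Pabpc1l, covered 48% of its sequence, and no gene of the tables carries the symbol Pabpc1l2b.

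**Figure D1:**
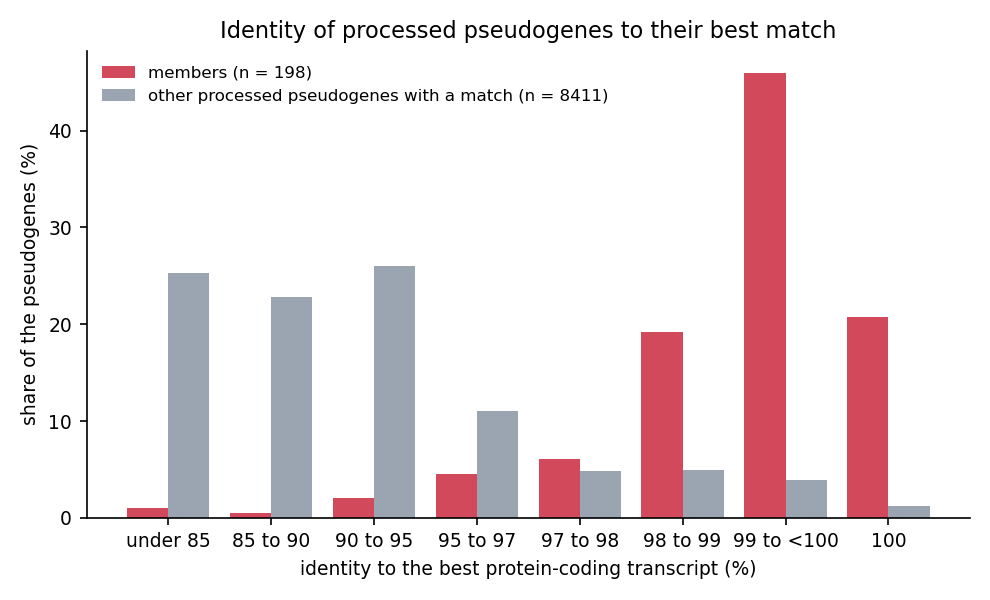
Share of pseudogenes (%) by identity to the best protein-coding transcript (%), for the 198 members and for the 8411 other processed pseudogenes with a match; the steps are narrower toward 100%. Members concentrate at 98% and above, where 46.0% of them lie between 99% and under 100%, while each of the 3 lowest steps holds more than 20% of the others.

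A member was next cut into all 100-base windows, and a window was counted as its own when no other gene of the annotation held it on the same strand. The median member owned 29.3% of its windows, against 100% for the other processed pseudogenes. In 50 members (25.3%) no window was its own, against 297 of the 9706 others long enough to hold a window (3.06%). Members had a median length of 650.5 bases (range 117 to 6092), against 524 bases for the others, and 192 of the 198 had 1 exon. They lay on 20 chromosomes, with 129 (65.2%) outside other genes. On the strand of another gene, 24 (12.1%) lay within an intron and 8 (4.04%) overlapped an exon, which need not enclose the copy. Of the other processed pseudogenes 72.2% lay outside other genes, 9.91% within a same-strand intron and 0.862% over a same-strand exon. Gm3226, a copy of Tuba1b, overlaps an exon of Il31ra, an interleukin receptor gene that itself had 0.125 TPM. Gm43580 overlaps an exon of Inpp5f, which had 120 TPM. The other members over a same-strand exon overlap Mir682, Mir692-2, Gm25241, Gm22801, Gm27288 or Gm23812, each listed at 0 TPM. The genes overlapped by the other processed pseudogenes were not compared.

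Many members kept the reading frame of the messenger RNA they match. In the frame of the match, 105 members (53.0%) had a start codon, all codons and neither a gap nor an early stop, and 32 of these had no base changed in the coding sequence. The changed codons of the 105 were 202 silent ones and 88 that alter the amino acid, and 65 of the 105 members encode the same protein as the match. Over all 198 members the changed codons were 845 silent ones and 892 that alter the amino acid or make a stop. The frames of other processed pseudogenes were not aligned in this way. Whether the members differ from them beyond their higher identity was therefore not tested. In 54 members a frameshift (37 members) or an early stop (30 members) broke the frame, and the remaining 39 lacked the start or part of the frame, or had a gap. Gm15459 kept all 646 codons of Hspa8, the constitutive cytosolic chaperone, with 5 bases changed and 1 amino acid altered. Gm19026, a copy of Camsap1, which caps microtubule minus ends, had 16 frameshifts and 3 early stops. Measured from ATG to stop, the longest frames relative to the match were those of Gm12481 and Gm6969 (166% and 102% of the codons of Serf2 and Cox7a2l), followed by copies with frames as long as that of the match, among them Tma7-ps, Tpt1-ps3 and Ube2n-ps1. The matched transcript of Gm12481 has only 59 codons, of which the alignment covered 31 without the start. AC123659.1, Gm4332, Gm48583 and Hist1h2al had no such frame and Gm15057 one of 3.75% of its match. This measure needs a stop codon within the annotated transcript, so a low value does not show a broken frame. Rpl3-ps1 had only 61 codons by it, although the alignment found all 403 codons of Rpl3 kept.

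Together the members held 0.210% ± 0.004 of all gene reads in the alignment-free tables and 0.413% ± 0.007 in the alignment-based tables (SD, n = 2 each). By TPM the shares were 0.669% ± 0.003 alignment-free and 1.15% ± 0.007 alignment-based. The alignment-based reads had chosen the members, which favours the alignment-based share. All 9940 processed pseudogenes, chosen without regard to reads, held 0.324% ± 0.015 alignment-free and 0.470% ± 0.005 alignment-based. The 10 members with most reads held 40.9% ± 0.1 of the members' alignment-based reads, and 24 members had 1000 or more. Levels spanned 1.72 to 603 TPM around a median of 28.8 TPM in the alignment-based tables, with 29 members at 100 TPM or more.

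The members with most alignment-based reads were copies of cytoskeletal, chaperone and ribosomal protein messenger RNAs. Gm14150, a copy of the alpha-tubulin gene Tuba1b, was first in the alignment-based tables, with 117 and 107 alignment-free reads, against 11559 and 12679 alignment-based reads in replicates 1 and 2. Gm15459, the copy of Hspa8, had 8999 and 9540 alignment-free reads, against 9742 and 10331 alignment-based reads. Both animals and both quantifications gave similar values for Gm15459, whereas Gm14150 was 108-fold lower by the alignment-free method. Gm3226, the other large copy of Tuba1b, had 4057 and 4481 alignment-free against 5316 and 5983 alignment-based reads. Rps2-ps13, a copy of a small-subunit ribosomal protein gene, had 2755 and 3221 alignment-free against 4434 and 4824 alignment-based reads. Vcp-rs, a copy of the AAA ATPase gene Vcp, had 2811 and 3090 alignment-free against 3301 and 3596 alignment-based reads. These 3 copies were within 2-fold in both quantifications. Gm8399 (Actg1, cytoplasmic gamma-actin) had 1179 and 1326 alignment-free against 2363 and 2691 alignment-based reads, and Gm13509 (Ap2m1, a subunit of the clathrin adaptor AP-2) had 1797 and 1729 against 2561 and 2408.

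The ranking by alignment-based TPM brought short copies forward. Gm10123, a copy of the peptidyl-prolyl isomerase gene Ppia, was first in it, with 0 and 0 alignment-free TPM, against 614 and 592 alignment-based TPM. Gm12338 (Cox7c) had 0 and 0 alignment-free against 482 and 459.6 alignment-based TPM, and Rps23-ps1 0 and 0 against 429 and 393. These 3 copies are identical to their match over their whole length and were listed at 0 in both alignment-free tables. Gm47441, a stretch of 117 bases identical to part of Tecr, an enzyme of very-long-chain fatty acid synthesis, reached 347 and 447 alignment-based TPM from 117 and 165 reads, since it has room for 18 start positions of a 100-base read. The other members among the 15 highest by TPM were Gm14150, Rps2-ps13, Gm15459, Atp6v0c-ps2, Gm3226, Rpl28-ps1, Rpl31-ps8, Gm7536, Gm4202, Rpl3-ps1 and Gm45660, which is 151 bases long.

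**Figure D2:**
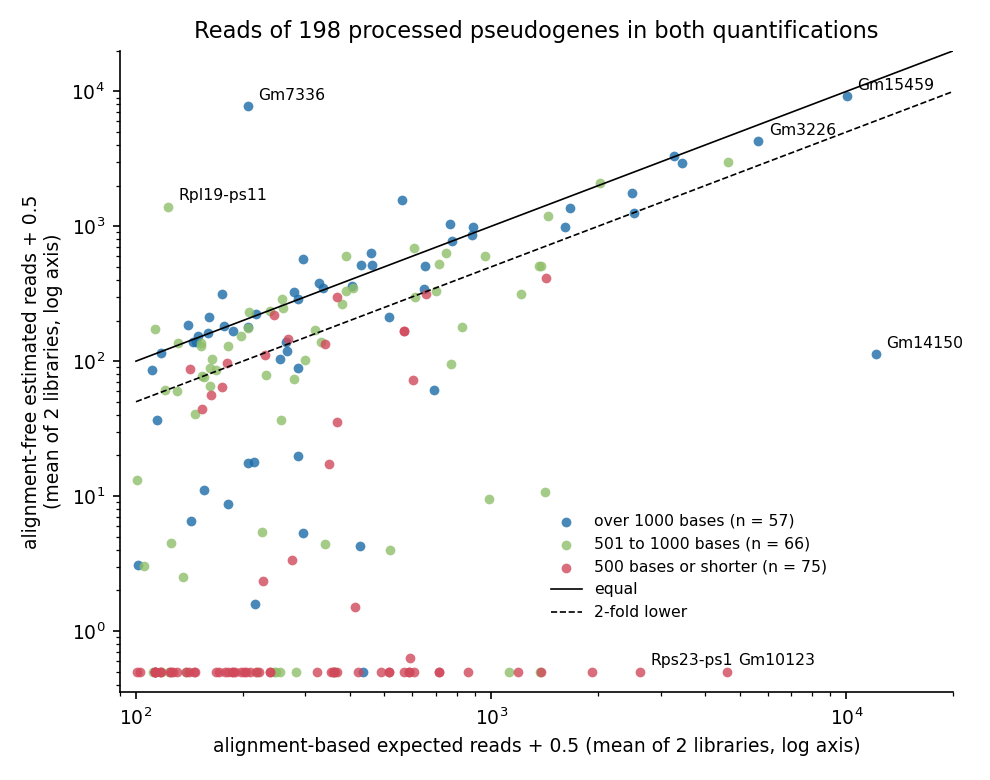
Alignment-free estimated reads against alignment-based expected reads of each member (mean of 2 libraries, 0.5 added, log axes), coloured by transcript length. Points on the bottom edge are members under 1 alignment-free read, most of them 500 bases or shorter; Gm7336 and Rpl19-ps11 lie far above the line of equality and Gm14150 far below it.

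The quantifications disagreed on most members, nearly always in 1 direction. With 0.5 added to each count, 121 members (61.1%) were at least 2-fold lower in the alignment-free tables in both libraries, where 2.05% of all 12683 genes at 100 expected reads or more were; without the members this was 139 of 12485 genes (1.11%). At least 2-fold higher were 3 members (1.52%), against a background of 0.449%. Within 2-fold in both libraries were 64 members, and 10 were on different sides of a limit in the 2 libraries. The median log2 ratio was −1.94 over the members, also with members under 3 reads set at 3 reads (−1.93), and 0.10 over all 12683 genes. On TPM with 0.1 added, 96 members were lower and 16 higher. The expected reads had chosen the members. Among the 153 processed pseudogenes with 100 or more alignment-free reads instead, 17 were lower and 70 higher. The 2 sets shared 84 genes, which are 42.4% of the members and 54.9% of the genes chosen by alignment-free reads.

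Listed under 1 alignment-free read in both libraries were 68 members (34.3%), which held 29589 and 32621 alignment-based reads. Among all 12683 genes 141 (1.11%) were so listed, 73 of which were not members. The lowest ratios were those of Gm10123, Rps23-ps1, Atp6v0c-ps2, Rpl28-ps1, Gm15387, Rpl31-ps8, Tpt1-ps3 and Gm12338. Of these, Atp6v0c-ps2 is a copy of a proton pump subunit gene with 1 changed base in its coding sequence, and Gm15387 one of Hmgb1, a chromatin protein, likewise with 1. No fold is given against values listed at 0.

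The members that went the other way were few. Gm7336, a copy of the glycolytic gene Gapdh with an identity of 99.8%, had 7406 and 8218 alignment-free reads, against 183 and 228 alignment-based reads. Rpl19-ps11, shown above, had 1300 and 1491 alignment-free against 136 and 109.8 alignment-based reads. Gm8355, a second copy of Hspa8, had 1509 and 1609 alignment-free against 551 and 570.3 alignment-based reads. All 3 were higher by the alignment-free method in both animals. The next ratios in order, Gm6206, Tdg-ps, Gm16477, Gm11478 and Tubb4b-ps1, stayed under 2-fold on average, at log2 values of 0.95, 0.85, 0.63, 0.61 and 0.46.

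The gap between the quantifications went with transcript length and with sequence of a member's own. All 27 members of up to 350 bases were at least 2-fold lower by the alignment-free method, 40 of 48 between 351 and 500 bases, 21 of 30 up to 700, 14 of 36 up to 1000 and 19 of 57 above. For the median member of up to 350 bases the effective length, the number of positions at which a read or fragment can start, was 68.3 bases in the alignment-free table and 210 bases in the alignment-based table of replicate 1. Of members of up to 500 bases 67 of 75 (89.3%) were lower, against 99 of 155 other genes of that length at 100 reads or more (63.9%). Above 500 bases 54 of 123 members (43.9%) were lower, against 40 of 12330 other genes (0.324%). Of the 50 members with no window of their own 45 were lower, and 36 were under 1 alignment-free read in both libraries, for a median log2 ratio of −5.97 or below with members under 3 reads set at 3; of the 34 with over 75% own windows 14 were lower, with a median of −0.36. Over the members, Spearman's rho of the log2 ratio was 0.66 with length and 0.44 with the share of own windows, and these were linked to each other (rho 0.42); the points share libraries and are given as a description. The part of each feature in the result was not tested.

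**Figure D3:**
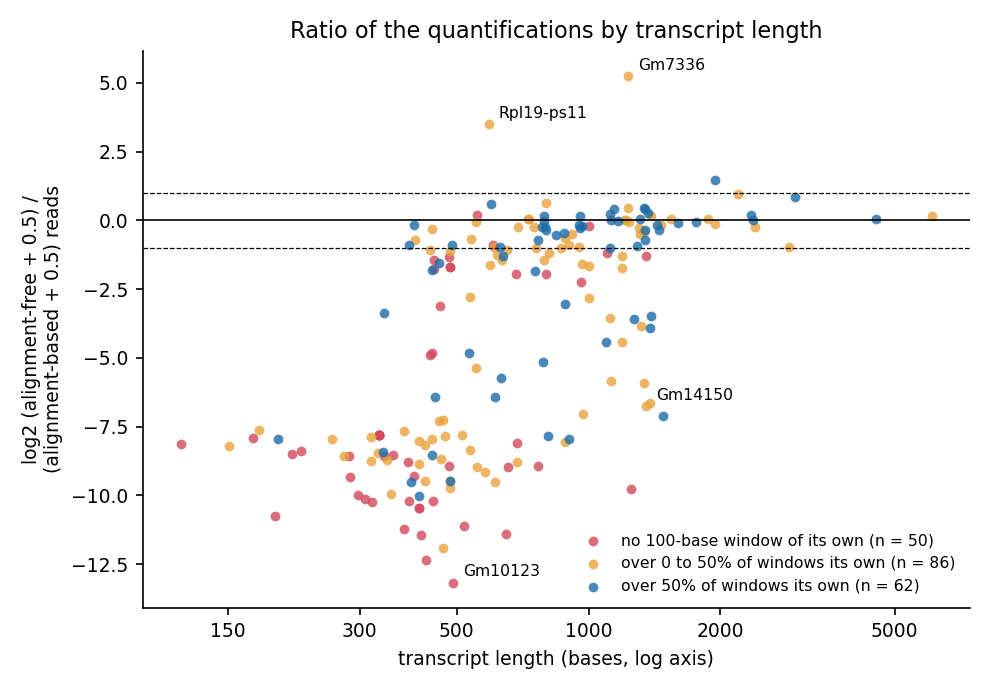
Log2 ratio of alignment-free over alignment-based reads (0.5 added) of the 198 members against transcript length (bases, log axis), coloured by the share of 100-base windows that no other gene holds; dashed lines mark 2-fold. Members under 350 bases all lie below the lower dashed line, and long members lie mostly between the lines with a group far below.

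Members with many windows of their own were found both with like and with unlike values, and the examples were chosen after their values were seen. Gm6548, 1165 bases long and with every window its own, had 865 and 859 alignment-free against 867 and 901 alignment-based reads. Gm13050, a copy of the elongation factor gene Eef2, had 479 and 534 against 604 and 696, and Glns-ps1, whose best match is Glul, the glutamine synthetase gene of astrocytes, had 320.2 and 328 against 276 and 279.8. Rps15-ps2, with 95% own windows but only 438 bases long, had 0 and 2.02 alignment-free reads, against 416 and 411 alignment-based reads. AC134576.3, also matching Glul, had 6.02 and 6.07 against 123 and 162. Of 62 members with at least 50% own windows, 34 were within 2-fold in both libraries.

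Added up over all matched genes and their copies, the totals of both quantifications were close, although sums of single genes differed in both directions. The 198 members matched 155 genes, of which 30 had more than 1 member and Rpl35a had 5. The sum over these genes and all their processed copies was 849008 and 887514 alignment-free reads, against 843654 and 886142 alignment-based reads. The matched genes alone had 781869 and 816882 alignment-free reads, against 718248 and 753218 alignment-based reads. The median log2 ratio of the quantifications was 0.02 for the sums and 0.12 for the matched genes alone, where all protein-coding genes at 100 reads or more had 0.11 and 0.10 in replicates 1 and 2. The median matched gene was near this background, and the median sum below it. Sums were within 2-fold for 149 of the 155 genes. In the case of Rpl27, chosen after its values were seen, the sums were nearly equal although the division was not. Its copies Gm11518 and Rpl27-ps3, identical to each other, had 0 and 0 alignment-free reads and 1313 and 1537 alignment-based reads together. Rpl27 itself had 1597 and 1823 alignment-free against 269 and 282 alignment-based reads, and the sums with all copies were 1597 and 1823 against 1586 and 1823. For Cox7c, the parent of Gm12338, the sums were 2100 and 2126 alignment-free against 2399 and 2636 alignment-based reads. The Tuba1b sum, with Gm14150, was 27742 and 29940.1 alignment-free against 32706 and 35438 alignment-based reads. On the other side, the Gapdh sum was 28169 and 31153 alignment-free against 12580 and 13750 alignment-based reads. The Ywhaz sum was 52733 and 52966 against 42713 and 42818. The close totals thus hold differences in both directions, and where the reads of single genes went was not tested. The sums that stayed 2-fold or more apart were those of Gapdh, Hist2h2aa1 and Gm45713, higher by the alignment-free method, and Rps29, Rpl36 and Snrpf, lower.

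Members held 7.57% and 7.60% of these summed reads in the alignment-free tables, against 14.4% and 14.6% in the alignment-based tables. They held over 50% in both libraries for 3 genes by the alignment-free and 13 by the alignment-based method. Because alignment-based reads had chosen the members, both comparisons favour the alignment-based side. Matched genes were abundant messages, with a median of 119.6 alignment-based TPM. The median was 3.99 TPM for all 21901 genes with a protein-coding transcript, expressed or not. Members hold reads shared with their matches, so an abundant match and membership are not independent. Matches of the other processed pseudogenes were not compared.

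A symbol ending in ps or rs names the parent of 58 members, and for 51 of them the parent is a gene of the tables, which the sequence match also named in every case. For the other 7, among them Glns-ps1, Eif4a-ps4 and Actg-ps1, no gene of the tables carries the parent's symbol. In TPM with 0.1 added, the pseudogene was below its parent in both libraries in 49 of 51 pairs by the alignment-free tables and in 45 by the alignment-based tables. The pseudogene was under 1 alignment-free read in both libraries in 21 of the 51 pairs, so a median ratio is given for the alignment-based tables alone, where log2 of pseudogene over parent was −1.90. In 48 pairs both animals had the same sign and the mean alignment-based ratio exceeded 2 SD. The median pseudogene held 0.109% and 0.181% of the pair's reads by the alignment-free method, against 12.2% and 11.1% by the alignment-based method. These pseudogenes, too, were chosen by alignment-based reads. The pairs are not separate from each other. Rpl35a-ps2, Rpl35a-ps3, Rpl35a-ps4 and Rpl35a-ps6 have equal values against the same parent, and Rpsa and Rpl28 are also in more than 1 pair.

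The 6 pairs above their parent in alignment-based TPM were of different kinds. Mrpl23-ps1, a copy of a mitochondrial ribosomal protein gene, had 32.4 and 27.6 alignment-based TPM, against 3.55 and 4.20 TPM of Mrpl23. Rpl27-ps3 had 112 and 120.3 TPM, against 24.6 and 24.4 TPM of Rpl27, and Rps23-ps1 429 and 393 TPM, against 115 and 117 TPM of Rps23. Each of these pseudogenes was listed at 0 in both alignment-free tables, as was Rpl36a-ps2 (139 and 139 TPM, against 77.8 and 79.1 TPM of Rpl36a). Rps2-ps13 was level with its parent at 302 and 301 TPM, against 299 and 290 TPM of Rps2. Itpa-ps1, a copy of the gene of the nucleotide-cleaning enzyme inosine triphosphatase, had 21.7 and 25.5 TPM, against 20.8 and 20.2 TPM. The last of these ratios, a log2 value of 0.20 ± 0.20 (SD, n = 2), was within the spread of the animals. By alignment-free TPM the pairs above their parent were Rpl19-ps11 (log2 1.19) and Rpl17-ps5 (log2 0.05). In alignment-free reads Rpl17-ps5 was below its parent, at 677 and 711 against 2837 and 2841. Rpl19-ps11 was above its parent in reads too, at 1300 and 1491 against 931 and 1027.

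Pairs whose division was alike in both methods included Rpl3-ps1, which held 36.3% and 39.4% of the reads it shared with Rpl3 alignment-free, against 38.5% and 37.3% alignment-based. Impdh2-ps, a copy of a guanine nucleotide synthesis gene, held 19.2% and 18.1% alignment-free, against 21.5% and 17.1% alignment-based. Kansl2-ps, a copy of the gene of a chromatin complex subunit, held 9.41% and 11.3% alignment-free, against 12.3% and 12.3% alignment-based. Morf4l1-ps1, with 1447 and 1391 alignment-based reads, held 0.130% and 0.131% of the pair's reads alignment-free, against 19.6% and 19.1%. The pair sums again differed little, with 50 of 51 within 2-fold and a median log2 ratio of 0.06; the exception was Rpl36-ps12 with Rpl36, at −2.51.

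**Figure D4:**
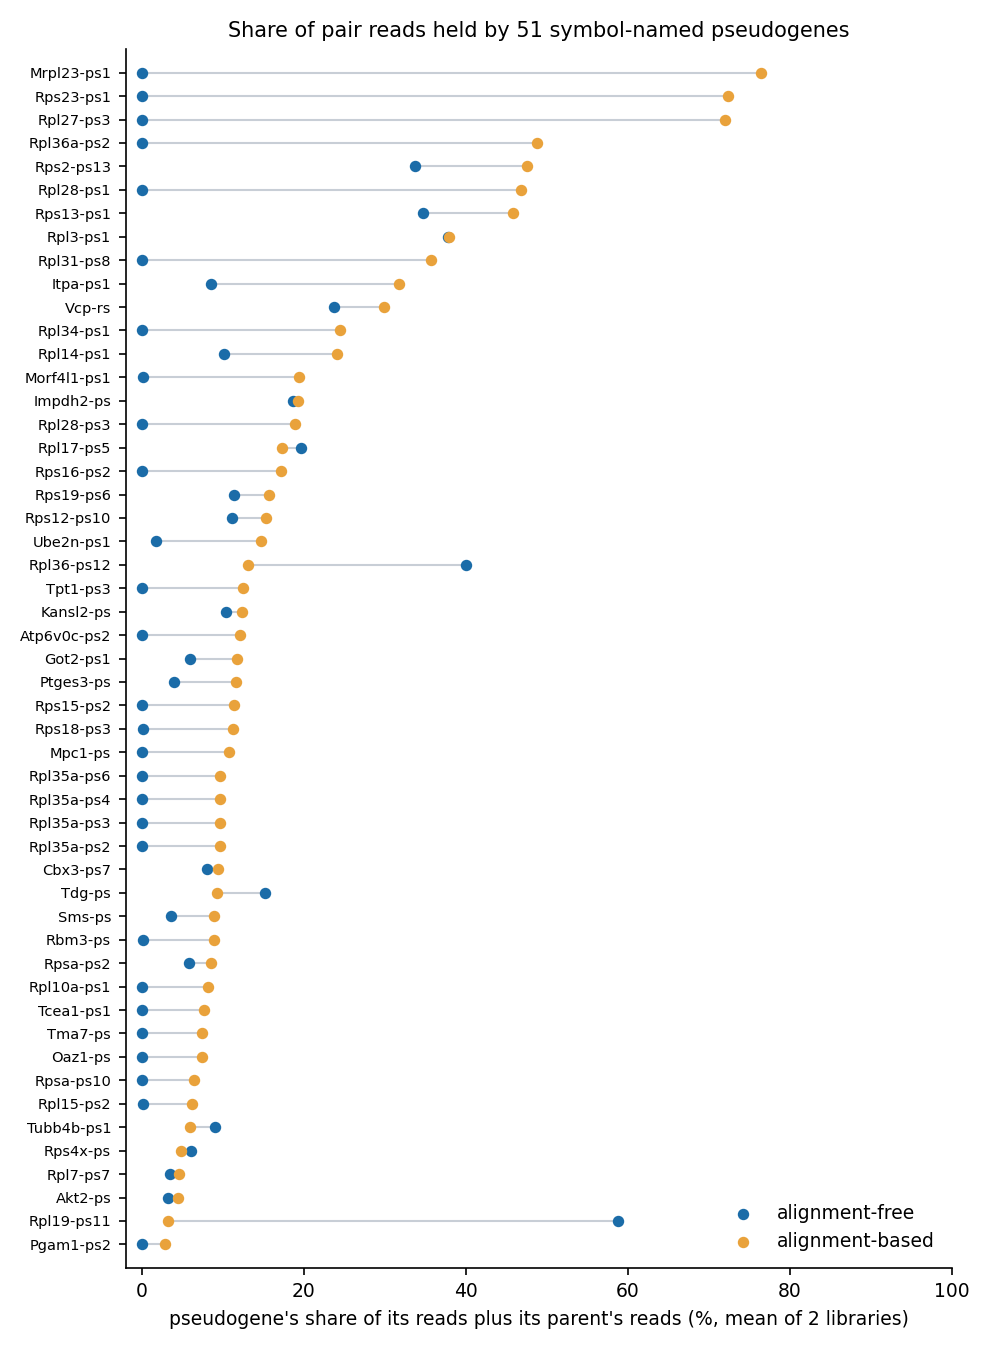
Share (%) of the reads of each symbol-named pair that the pseudogene held, as the mean of 2 libraries, in the alignment-free and the alignment-based tables, for 51 pairs ordered by the alignment-based share. In most pairs the alignment-free point lies at or near 0; Rpl19-ps11 and Rpl36-ps12 lie far to the right of their alignment-based points.

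By the family of the matched gene, copies of cytosolic ribosomal protein genes were the largest of the 8 named families. They numbered 63 members of 2083 such processed pseudogenes (3.02%), matched 41 genes and held 31.8% of the members' alignment-based reads. By the alignment-free method 43 were lower and 1 higher. The share that were members was higher for cytoskeletal (6.57%), translation factor (5.96%), ubiquitin and proteasome (4.66%) and respiratory chain and ATP synthase copies (3.91%). It was lower for chaperone (3.00%), chromatin and RNA binding (2.37%) and glycolysis copies (1.80%), and 1.99% over all processed pseudogenes. Copies of cytoskeletal genes were 9, held 18.5% of the reads through Gm14150 and Gm3226, and had 3 lower. Chaperone copies were 7, with 12.9% of the reads, 5 lower and 1 higher. Respiratory chain and ATP synthase copies were 9, short at a median of 342 bases, with 8 lower and 7 under 1 alignment-free read in both libraries, for a median log2 ratio of −6.31 or below with members under 3 alignment-free reads set at 3; they include Gm12338, Ndufb4c and Gm10221 (Atp5l). The 12 copies that the symbol list files under chromatin and RNA binding were lower in each case, with a median log2 ratio of −5.54 or below in the same way. The list is not complete: Cbx3-ps7, Gm9825 (Rnps1) and Kansl2-ps, copies of genes with such roles that it files elsewhere, chosen after their values were seen, were within 2-fold in both libraries. Of 9 copies of translation factor genes 4 were lower, with a median log2 ratio of −0.36 at a median length of 1345 bases. Of 9 ubiquitin and proteasome copies 5 were lower, and of 6 glycolysis copies 4 lower and Gm7336 higher. The 74 copies of other genes had 37 lower and none higher. Over all 198 members 121 were lower with a median of −1.94, so that the families spread on both sides of it.

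Between the animals most members agreed. After TMM scaling 7 members (3.54%) were at least 2-fold apart, against 0.355% of all 12683 genes at 100 reads or more and 38 of the 12485 that are not members. The median absolute log2 ratio was 0.15 over the members and 0.09 over all these genes. Log2(TPM + 1) of the members in the 2 animals had Pearson's r of 0.90 and Spearman's rho of 0.93, across genes, which are not independent replicates.

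The 7 members that were apart had an identity of 99.6% to 100% to their best match. Gm6565 had 0 and 401 alignment-based reads and Gm6361 had 442 and 0, in replicates 1 and 2. Both are copies of Ube2v2, a ubiquitin-conjugating enzyme variant, and both had 0 alignment-free reads in each library. Together the 2 copies held 442 and 401 reads, a log2 ratio of 0.16 between the animals. Gm10163, a copy of the ribosomal protein gene Rpl21, had 81.9 and 1097 alignment-based reads, and the identical copies Gm10240 and Gm13370 had 755 and 382 each. The 3 copies of Rpl21 summed to 1593 and 1862 reads, a log2 ratio of −0.21. Rps12l1 (Rps12) had 182 and 537 reads, Gm14303 (Rps29) 70.3 and 206, Gm8203 (H2afz, a histone variant) 154 and 321, and Gm13394 (Gapdh) 61.4 and 139. With reads summed over the members of each matched gene, 2 of the 155 genes were 2-fold apart. The highest ratios on the other side, after Gm6361, were those of Gm10240, Gm13370, AC124512.1 and Gm10039, all under 2-fold.

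**Figure D5:**
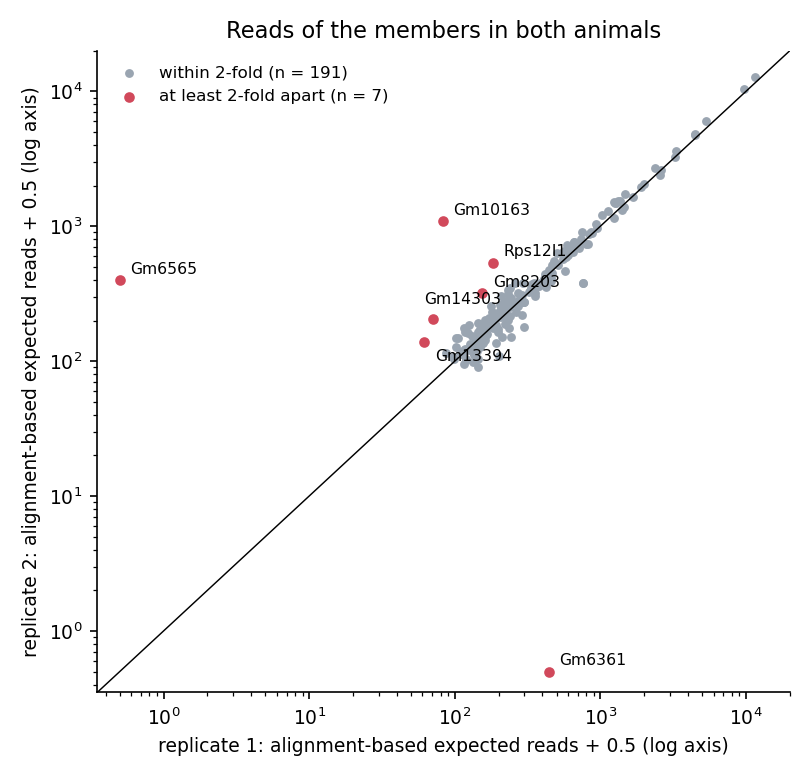
Alignment-based expected reads of each member in replicate 2 against replicate 1 (0.5 added, log axes), with the line of equality. The 7 labelled members are at least 2-fold apart after TMM scaling; Gm6565 and Gm6361 have 0 reads in opposite animals.

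The deposited uncertainty of the division also marked the members. Expected reads were whole numbers, within 0.005, in both libraries for 2 members (1.01%), Pabpc1l2b-ps and AC098880.2, against 10566 of all 12683 genes (83.3%). The median posterior SD was 5.89% of the posterior mean over the members and 0 over all genes, and it exceeded 20% for 28 members. For Gm10163 it was 60.5% and 56.3%, for Gm6361 46.6% and 60.8%, and for Gm10240 57.4% and 52.5%. For Gm14150 it was 0.817% and 0.824%, and for Rps15-ps2 0.705% and 0.833%, although the quantifications differed on both by more than 100-fold. Pabpc1l2b-ps, lowest in identity to its best match and with 29.9% own windows, had 366 and 333 alignment-free against 410 and 408 alignment-based reads. AC098880.2 had 302 and 275 against 299 and 272.

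Of the processed pseudogenes 198 of 9940 (1.99%) reached 100 reads, against 17 of 2642 unprocessed pseudogenes (0.643%), which arise by duplication. The transcribed classes of the annotation are small: 3 of 64 transcribed processed (4.69%) and 1 of 37 transcribed unprocessed pseudogenes (2.70%) reached it. The 198 members held 121798 and 129726 alignment-based reads, against 184284 and 192307 for the 17 unprocessed pseudogenes. At least 2-fold lower by the alignment-free method were 121 of the 198 members, against 3 of the 17 unprocessed, 1 of the 3 transcribed processed and 0 of the 1 transcribed unprocessed ones. Apart between the animals by 2-fold were 7 members, against 0 of the genes of these other classes.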

How the data were processed

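Total RNA-seq of left cerebral cortex from 2 female mice was used as 1 group. The deposited README files say that the authors took expected counts and TPM per gene from reads aligned to transcripts of mm10, annotation M21. The column names match those of RSEM. Posterior SDs and credible bounds come from the same deposited tables. For the deposited alignment-free tables, estimated counts and TPM per transcript were obtained by the authors from the reads without alignments, per these README files; column names match those of kallisto. Not given in the sources used here are tools, versions, use of strand and the level of the credible bounds, and whether the animals were littermates or the libraries prepared on the same day; the SD may thus be partly technical. Transcript estimates were summed per gene; 86 gene rows have no type there and cannot be members. Where the alignment-based tables give length minus effective length as 99 bases, reads are 100 bases long.

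Members and lists were chosen with earlier results of these data known. Libraries were scaled by TMM (edgeR 4.0.16, R 4.3.3), with DESeq2 1.42.0 size factors as an alternative; 0.5 was added to counts and 0.1 to TPM. Pseudogene transcripts were aligned to protein-coding transcripts of GENCODE M21 with blastn 2.17.0 (word size 20, E-value 1e-10), the best hit was realigned with Biopython 1.88, and 100-base windows were searched among all transcripts on the same strand. Sequences are from GENCODE M21 (GRCm38, identical to mm10, counted from 1). Families were read from the matched symbol. A pair needs a symbol of the parent followed by ps or rs; the number after it was taken as optional. The fold calls were tested on simulated data. No p-value was computed. Depth was 29867112 and 31031340 gene reads. Where 0 reads are listed, up to 3 remain possible at 95% confidence, counting error only. This bound does not cover how reads shared with other genes were divided.

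Named genes are the 15 members highest in TPM, the 10 highest in reads, the 5 largest and smallest ratios between animals, the 8 largest and smallest between quantifications, symbol-named pairs with most reads, 3 genes on each side of the limit, the largest pair shares, the longest and shortest frames and the lowest identities. Other named genes were chosen after their values were seen, and some pairs appear in the plot only. Sequences on chromosome 18, which holds 5 members, are not shown.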

Additional observations from a re-analysis of the deposited data

How the results depend on the processing

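The count of 198 members was between 195 and 199 from 1 library alone, and 128 at a limit of 200 reads. The members' share of gene reads, 0.413%, was 0.21% with alignment-free counts, 1.15% in TPM, 0.432% at 50 reads and 0.38% at 200 reads, and 0.408% to 0.418% from 1 library. The 7 members apart between animals became 1347 of 2643 processed pseudogenes with any read, 11 at 50 reads, 14 at a 1.5-fold and 3 at a 3-fold limit, and 2 with reads summed per matched gene. The 121 members lower by the alignment-free method became 77 at 200 reads, 635 with no filter on low counts, 17 among genes chosen by alignment-free reads and 54 among members over 500 bases; 1 library alone gave 124 to 127. The 3 that were higher became 16 in TPM, 6 at 50 reads, 144 with no filter and 70 among genes chosen by alignment-free reads; 1 library alone gave 3 to 4. The count of 45 pairs below the parent was 45 from either library and 33 with numbered symbols only. The settings over 500 bases, summed reads and numbered symbols were chosen after seeing the data. Fewer or other genes enter under each other limit, filter or choice of members; for the TPM and alignment-free settings the cause was not tested. No paired analysis was possible because there is only 1 group. Estimated reads under about 3 are within counting error of 0.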

Other observations

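The alignment-free tables gave 100 or more reads to 69 processed pseudogenes that are not members. These held 25707 and 19632 alignment-free reads in replicates 1 and 2, against 675 and 509.97 alignment-based reads, and 61 of them had a mean under 10 alignment-based reads. For 39 of the 69 the best protein-coding match was Vmn2r79, a vomeronasal receptor gene, with a median identity of 91.6%. These 39, with a median length of 3835 bases and on 9 chromosomes, held 16475 and 11659.7 alignment-free against 96.3 and 77.2 alignment-based reads. Vmn2r79 itself had 177 and 123 alignment-free against 1.26 and 0 alignment-based reads. Gm48132 was the highest of them with 1382 and 949.7 alignment-free against 4 and 2 alignment-based reads. Entries of like length had other best matches, such as Gm47056 (3845 bases, Vmn1r81) and Gm47951 (3737 bases, Vmn1r55). The best match is thus not shown to be the parent, and the origin of these sequences was not tested. A different case was Tubb2a-ps2, best matched by the beta-tubulin gene Tubb2b, with 569.99 and 672 alignment-free against 74.5 and 81.1 alignment-based reads. The genes of this paragraph were singled out after their values were seen.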
